A study of Mus musculus with 6 samples.

Results

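The genes described here encode proteins that mark megakaryocytes, the bone marrow cells that shed platelets. They are the chemokines Pf4 and Ppbp, the adhesion receptor subunits Gp1ba, Gp9 and Gp5, the collagen receptor Gp6, von Willebrand factor (Vwf), the transcription factor Nfe2 and the protease-activated receptor F2rl2. These 9 genes were taken by name, and each was read from the brightest array row annotated with that symbol alone. Of the 9, 8 had such a row, 1 each, among the 22180 genes tested. Gp1ba had no row of its own in the annotation and is not analysed here.

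The measurements came from Affymetrix arrays of a mouse acute myeloid leukaemia line called PU.1low URE-/-. It was established from a leukaemic mouse that lacked the URE, an upstream enhancer of Spi1, the gene of the transcription factor PU.1, so cells of both groups carried that deletion. Treatment was 330 nM of DB2313, a compound that the labels call an inhibitor of PU.1, or an equal volume of water as vehicle. RNA was taken after 24 h. Each group had 3 arrays of this 1 line. The labels call them biological replicates without saying whether cultures were started separately, and the p-values measure only how far these samples spread, which may be technical. Bulk RNA was measured, so fewer cells of a type and less RNA per cell cannot be told apart.

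Megakaryocytes pack chemokines and von Willebrand factor into alpha granules and carry on their surface the receptors by which platelets later stick to an injured vessel. The complex of Gp1ba, Gp1bb, Gp9 and Gp5 binds von Willebrand factor, Gp6 binds collagen, and some protease-activated receptors respond to thrombin. Late in maturation the factor NF-E2, a dimer of Nfe2 with a small Maf protein, drives the genes of platelet release. In blood formation, ETS and GATA factors act together on many of these genes, whereas PU.1, itself an ETS factor, favours myeloid and lymphoid fates and opposes GATA1.

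None of the 8 measured genes passed the test for a difference between DB2313 and vehicle (limma adjusted p of 0.05 over all genes), where 1.81% of all genes tested passed. The surface receptor genes Gp6, Gp9, Gp5 and F2rl2 had lower mean signals with DB2313, by log2 differences between -0.48 and -0.25, and only Gp6 and Gp9 had groups that did not overlap. The granule genes Pf4, Ppbp and Vwf had differences between -0.10 and 0.10. The signal of Nfe2 was nearly equal in both groups. Without adjustment, 2 of the 8 genes, Gp6 and Gp9, had a limma p under 0.05, both lower with DB2313, against 12.7% of all genes in either direction and 6.16% lower. A trended and robust prior called 1 of the 8, Gp6, and 4.15% of all genes, and an unmoderated test called 0 of the 8 and 0.316% of all genes.

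Most of these signals were dim or below the median of genes. On the log2 scale of the array, the median over genes of the mean signal was 5.17, and 7 of the 8 genes lay below it. Pf4 and Ppbp also lay below the 0.25 quantile, 3.89, at percentiles 24.3 and 22.8 of mean signal among genes. Vwf, Gp6, Gp5, Gp9 and F2rl2 were found between percentiles 39.9 and 49.1, and Nfe2, the brightest, at 76.9. The table gives no detection call, so whether a dim signal is above background was not tested. Signals of different genes are not ranked against each other beyond this position, since probes differ in brightness.

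Markers of the labelled cell type were placed by the signal of their rows, which does not order expression between genes. Elane, Prtn3 and Ctsg, proteases of myeloid granules, had vehicle means of 13.05, 12.46 and 12.51 (log2), near the top of the scale. Of the 12 leukaemia cell markers examined, 8 lay at percentile 69.9 or above, while Ptprc, the pan-leukocyte phosphatase, at percentile 14.6, and Cd34, a progenitor marker, at 39.6, were dim in the rows annotated to them. Among further megakaryocyte markers, Itga2b, the integrin chain of the fibrinogen receptor, lay at percentile 47.9, Itgb3, its partner, at 36.9, the platelet tubulin gene Tubb1 at 34.8 and Clec1b at 7.02. Thbs1, Treml1 and Selp lay above the median signal of genes. Gp1bb had no row of its own. The line is labelled as myeloid leukaemia, and the genes are called megakaryocyte and platelet genes for what they are known to do.

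**Figure D1:**
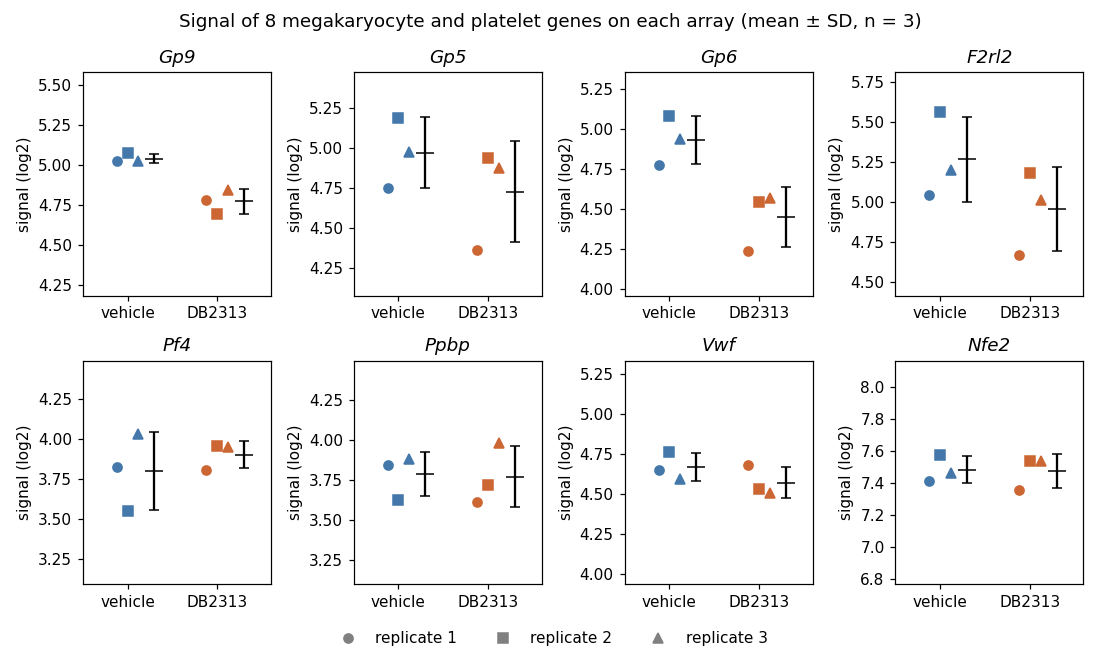
Signal (log2, vertical axes of equal span in every panel) of each of the 8 genes in vehicle (blue) and DB2313 (orange), with 1 marker per replicate and the mean ± SD (n = 3) in black. For Gp9 and Gp6 all DB2313 points lie below all vehicle points, and for the other 6 genes the groups overlap.

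Gp6, the immunoglobulin-like receptor that signals on contact with collagen, had the largest difference of the 8. Its signal was 4.78, 5.08 and 4.94 in vehicle replicates 1, 2 and 3, and 4.23, 4.54 and 4.57 in DB2313 replicates 1, 2 and 3. All 3 DB2313 arrays were below the lowest vehicle array, with a gap of 0.21 between the groups. DB2313 minus vehicle was -0.48 on the log2 scale (SE 0.11, 95% confidence interval -0.75 to -0.22, limma adjusted p = 0.108). That is 1.40-fold lower on the deposited scale, and with an offset of 32 added before the log, which damps dim signals, the difference was -0.22. The trended and robust prior gave an adjusted p of 0.0471, and over all 15 alternatives that kept the gene the adjusted p ranged from 0.0471 to 0.301.

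Gp9, the small subunit that stabilises the von Willebrand factor receptor at the surface, had the tightest vehicle values. They were 5.03, 5.08 and 5.03, against 4.78, 4.69 and 4.85 with DB2313. Here too the groups did not overlap, with a gap of 0.18. On the log2 scale the difference was -0.27 (SE 0.064, interval -0.42 to -0.12, limma adjusted p = 0.114), and it was -0.13 with the offset. Groups with DB2313 entirely below vehicle were thus seen in 2 of the 8 genes, against 9.55% of all genes tested. DB2313 lay entirely above vehicle in 0 of the 8, against 9.75% of all genes, which makes 2 of 8 without overlap against 19.3%.

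Gp5, the subunit of the same complex that thrombin cleaves, was more variable. Its signal was 4.75, 5.19 and 4.98 in vehicle and 4.36, 4.94 and 4.88 with DB2313. The lowest DB2313 value belonged to replicate 1, while the other two lay within the vehicle range. The log2 difference was -0.25 with an interval from -0.64 to 0.15 (limma adjusted p = 0.625), and it was -0.06 without DB2313 replicate 1. Of the 4 genes of this receptor complex only Gp9 and Gp5 were measured, and neither passed.

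F2rl2 encodes PAR3, which in mouse platelets presents thrombin to the signalling receptor PAR4, the product of F2rl3. Its signal was 5.05, 5.56 and 5.20 in vehicle and 4.67, 5.18 and 5.02 with DB2313. Only DB2313 replicates 1 and 3 lay below every vehicle array, so the groups overlapped. The means differed by -0.31 (log2), with an interval from -0.70 to 0.07 (limma adjusted p = 0.498). Without DB2313 replicate 1 it was -0.17. F2rl3 itself had a difference of 0.17 (adjusted p = 0.362), with all DB2313 values above all vehicle values. F2r, which encodes PAR1 and was named after its value was seen, had -0.01.

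The promoters of these 4 receptor genes are shown because the compound is labelled an inhibitor of an ETS factor. Each is the 250 bases before the RefSeq start on GRCm38.p6, read 5′ to 3′ on the strand of the gene. Capitals mark matches on either strand to GAGGAA or GGAAGT, which contain the GGAA core bound by ETS factors. They also mark AGATAA, a form of the letters bound by GATA factors. They also mark TGANTCA, where N is any base. That is wider than the core bound by AP-1 and NF-E2, which has C or G at N. GAGGAA and GGAAGT share letters and can overlap.
Gp9 (chr6:87777820-87778069, plus strand): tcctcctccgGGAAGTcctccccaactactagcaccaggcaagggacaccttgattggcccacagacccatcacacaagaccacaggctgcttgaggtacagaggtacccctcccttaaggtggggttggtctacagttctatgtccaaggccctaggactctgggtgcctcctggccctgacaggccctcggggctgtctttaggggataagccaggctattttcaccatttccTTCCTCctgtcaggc
Gp5 (chr16:30310782-30311031, minus strand): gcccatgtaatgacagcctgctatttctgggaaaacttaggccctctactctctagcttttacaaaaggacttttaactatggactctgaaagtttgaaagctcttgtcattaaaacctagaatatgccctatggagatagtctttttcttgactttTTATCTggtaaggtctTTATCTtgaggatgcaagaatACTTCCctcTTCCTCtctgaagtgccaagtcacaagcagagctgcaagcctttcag
Gp6 (chr7:4397745-4397994, minus strand): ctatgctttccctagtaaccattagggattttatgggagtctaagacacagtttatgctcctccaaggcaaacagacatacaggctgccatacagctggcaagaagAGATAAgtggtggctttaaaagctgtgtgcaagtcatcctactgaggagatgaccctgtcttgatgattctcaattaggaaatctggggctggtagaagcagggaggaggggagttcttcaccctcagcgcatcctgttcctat
F2rl2 (chr13:95696670-95696919, plus strand): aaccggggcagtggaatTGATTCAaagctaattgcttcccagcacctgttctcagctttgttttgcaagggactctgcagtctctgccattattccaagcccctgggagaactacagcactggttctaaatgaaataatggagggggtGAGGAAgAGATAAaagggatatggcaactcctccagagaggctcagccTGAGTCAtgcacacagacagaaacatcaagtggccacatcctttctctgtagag
Gp9 held 1 match each to GAGGAA and GGAAGT. Gp5 held 1 match to each of these and 2 to AGATAA. The Gp6 window held 1 match to AGATAA and no match to the other 3 motifs. A GGAA core among other letters was not marked, and the Gp6 window held such a core, as in aggaaa. Nor was a GATA core among other letters marked, as in agatag of the Gp5 window and ggataa of the Gp9 window. F2rl2 held 1 match to GAGGAA, 1 to AGATAA and 2 to TGANTCA. Of the latter, TGAGTCA has the G of the AP-1 and NF-E2 core at N, and TGATTCA does not have C or G there.

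The RefSeq table held promoters for 7 of the 9 genes, Vwf and Nfe2 being the others. Matches to GAGGAA were found in 5 of the 7, Pf4, Gp1ba, Gp9, Gp5 and F2rl2, and in 23.3% of 32851 promoter windows of that length. GGAAGT was found in 4 of 7 against 19.7%, AGATAA in 3 of 7 against 9.99%, and TGANTCA in 2 of 7 against 6.75%. GGAA and GATA cores among other letters were not counted. Those with TGANTCA were F2rl2 and Ppbp, whose match was TGAATCA, without C or G at N. Pf4, with a log2 difference of 0.10, held 1 match each to GAGGAA and GGAAGT. Such matches describe letters and not binding, which was not measured.

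Pf4 encodes platelet factor 4, a chemokine that binds heparin. Its signal was 3.82, 3.54 and 4.03 in vehicle and 3.80, 3.95 and 3.95 with DB2313. The DB2313 values lay inside the vehicle range, which was wide at 0.49. The log2 difference was 0.10, with an interval from -0.18 to 0.38 (limma adjusted p = 0.801). Leaving out vehicle replicate 2, its lowest array, turned the sign to -0.03.

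Ppbp encodes the precursor of platelet chemokines that attract neutrophils. Its signal was 3.84, 3.63 and 3.88 in vehicle and 3.61, 3.72 and 3.98 with DB2313. The DB2313 values spanned the whole vehicle range, and the means differed by -0.02 (log2, interval -0.28 to 0.25, limma adjusted p = 0.973). Both genes belong to the CXC chemokines. Of 15 such genes measured 0 passed, against 1.81% of all genes, and 0 had an unadjusted limma p under 0.05, against 12.7%. Among the 15 there were 10 differences above 0 and 5 below, against 50.9% of all genes below 0, and a median of 0.02. The smallest p among the others were those of Cxcl15 (0.08, adjusted p = 0.679) and Cxcl9 (-0.07, adjusted p = 0.773).

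Vwf encodes the large multimeric protein that tethers platelets to exposed collagen, and it is made by megakaryocytes and endothelial cells. Its signal was 4.65, 4.77 and 4.60 in vehicle and 4.68, 4.53 and 4.50 with DB2313. Replicate 1 of DB2313 lay within the vehicle range and the other two below it. The log2 difference was -0.10 (interval -0.28 to 0.08, limma adjusted p = 0.674). It ran from -0.15 without DB2313 replicate 1 to -0.05 without vehicle replicate 2. Of 10 endothelial markers, only Cdh5, an endothelial cadherin, passed, against 1.81% of all genes. Its difference was 0.86, and the call was lost in the unmoderated test alone (adjusted p = 0.0549). Below 0 lay 5 of the 10, against 50.9% of all genes.

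Nfe2, the DNA-binding subunit specific to NF-E2, was the brightest of the 8. Its signal was 7.41, 7.58 and 7.47 in vehicle and 7.36, 7.54 and 7.54 with DB2313, so the groups overlapped almost fully. The log2 difference was -0.01, with an interval from -0.19 to 0.18, which allows a DB2313 level between 0.875 and 1.13 times that of vehicle (limma adjusted p = 0.981). Nfe2 and the measured factors that are related to it or pair with it made 9 genes. Of the 9, 0 passed in limma, against 1.81% of all genes, and 2 had an unadjusted p under 0.05, against 12.7%. These were the small Maf genes Mafg, with a difference of -0.22 (adjusted p = 0.157), and Mafk, with 0.19 (adjusted p = 0.223). Their groups did not overlap, in opposite directions. With Nfe2l3 (below) and Bach2 (above), 2 of the 9 had DB2313 entirely below vehicle and 2 entirely above. Over all genes these shares were 9.55% and 9.75%. Mafg passed when the dimmer genes, below the median, were dropped (adjusted p = 0.0376) and with the offset (0.0285), and Mafk with the offset (0.0460).

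**Figure D2:**
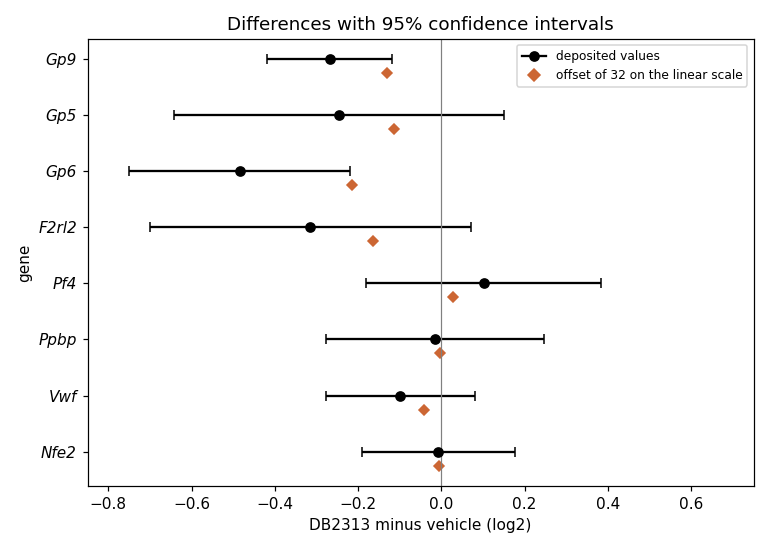
DB2313 minus vehicle difference (log2) of each of the 8 genes, with 95% confidence intervals from limma as bars around black points, and the difference after 32 was added on the linear scale as orange diamonds. The intervals of Gp6 and Gp9 lie below 0 and those of the other 6 genes include 0, although no gene passed after adjustment.

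The 8 genes had 7 differences below 0 and a median of -0.17, against 50.9% below 0 and a median of -0.002 over all genes tested. The genes were chosen with earlier results of these data known, so these counts are given as a description. With each array dropped in turn, between 5 and 7 of the 8 lay below 0, and the 5 came without DB2313 replicate 1. The median ranged from -0.21 to -0.11 in these settings, the latter without DB2313 replicate 1 (-0.11) and nearly so without vehicle replicate 2 (-0.12). Genes that changed sign were Ppbp, Pf4 and Nfe2, all within their replicate spread, while the 4 receptor genes and Vwf stayed below 0 in all 6.

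Variation within the groups ran through several of the genes together. In vehicle, replicate 1 was the lowest array for Gp5, Gp6, Nfe2 and F2rl2, and replicate 2 was the highest for these and for Gp9 and Vwf. With DB2313, replicate 1 was the lowest array for 6 of the 8 genes, with a median deviation from the group mean of -0.14, against -0.001 over all genes. Pf4 and Ppbp did not follow this order in vehicle, where replicate 2 was their lowest array. The part of this shared variation in the differences above was not tested. The spread within a group reached 0.52 for F2rl2 and 0.58 for Gp5, larger than the difference between their group means.

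**Figure D3:**
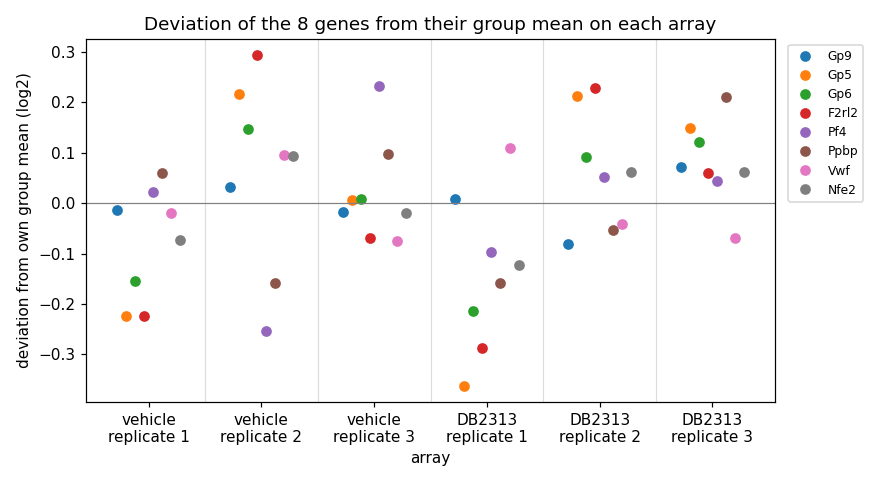
Deviation of each of the 8 genes from the mean of its own group (log2, vertical axis) on each of the 6 arrays (horizontal axis), with 1 colour per gene. Gp5, Gp6 and F2rl2 lie low on replicate 1 of both groups and high on replicate 2 of both groups, while Gp9 stays within 0.1 of 0.

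For Gp6, the gene with the smallest p, the 3 genes tested with the nearest profile over the 6 arrays were Plek, Kdm7a and Plin2, by Euclidean distance of mean-centred log2 values (0.090, 0.142 and 0.152). Plek encodes pleckstrin, a protein kinase C substrate of platelets and leukocytes, Kdm7a a histone demethylase and Plin2 a lipid droplet coat protein. Their differences were -0.50, -0.51 and -0.45, with limma adjusted p of 0.0691, 0.0624 and 0.0402. The profiles include the difference between the groups, so values near the -0.48 of Gp6 follow from how these genes were chosen. Plek and Kdm7a each passed in 5 of 16 alternatives (lowest adjusted p 0.0196 and 0.00844). On the deposited values only Plin2 passed, and its call was lost with each array dropped in turn (adjusted p 0.0805 to 0.141).

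Other megakaryocyte and platelet genes were read by role from lists that hold 68 genes with the 9 above, 62 of them measured. Of the 62, 3 fell and 0 rose, where 0.789% of all genes were lower and 1.02% higher past the threshold, and 43 differences lay below 0 with a median of -0.05. Among the 54 measured genes outside the 8, 36 lay below 0, against 50.9% of all genes. All 3 that fell had bright signals, whereas 7 of the 8 genes above lay below the median signal of genes.

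Alpha granule cargo included the largest difference of the 62. Thbs1, which encodes thrombospondin, an adhesive protein stored in these granules and also secreted by other cells, went from 12.15 ± 0.05 to 11.28 ± 0.02 (log2, SD, n = 3), a difference of -0.87 (limma adjusted p = 0.000840), and it passed in all 16 alternatives. It was 1 of 13 measured genes of this list, which also holds genes of granule assembly. Of the 13, 7 lay below 0, against 50.9% of all genes, and 4 had an unadjusted p under 0.05, against 12.7%. F5, coagulation factor V, had -0.33 (adjusted p = 0.160) and Selp, the adhesion molecule P-selectin, -0.34 (adjusted p = 0.371). F13a1, a subunit of coagulation factor XIII, was counted in this list, but whether its protein lies in these granules was not examined. F13a1 had -0.13 (adjusted p = 0.394), with DB2313 entirely below vehicle, as in 9.55% of all genes. These 3 were named after their values were seen, and F5 and F13a1 passed with the trended and robust prior (0.0164 and 0.0154).

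Genes of platelet production and NF-E2 action held the other two that fell. Flna, the actin cross-linker filamin A, had a difference of -0.40 (limma adjusted p = 0.0203), and Myh9, the heavy chain of nonmuscle myosin IIA, -0.34 (adjusted p = 0.0404). Both act in the release of platelets and are also part of the cytoskeleton of most cells. Dropping any of the 6 arrays ended both calls, at adjusted p of 0.0651 to 0.0919 for Flna and 0.110 to 0.149 for Myh9. The other 7 measured genes did not pass. Tubb1, the platelet tubulin and a known NF-E2 target, had -0.01, and Tbxas1, thromboxane synthase, -0.13 (both named after their values were seen).

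Receptor and signalling partners gave 0 calls in limma, against 1.81% of all genes. At an unadjusted p under 0.05 were 1 of 10 genes of the collagen receptor pathway, Gp6 itself, and 0 of 6 of the fibrinogen receptor. Of 9 agonist receptors 1 was under it, F2rl3, against 12.7% of all genes. Of 10 measured genes of the collagen receptor pathway 7 lay below 0, against 50.9% of all genes. They were led after Gp6 by Itga2, the alpha chain of a collagen-binding integrin (-0.20, limma adjusted p = 0.422), and Plcg2, a phospholipase C (-0.14, adjusted p = 0.443). Fcer1g, the signalling chain that carries Gp6 to the surface, had 0.01 with an interval from -0.15 to 0.18 (named after its value was seen). Among 6 genes of the fibrinogen receptor and its activation, talin (Tln1) had -0.13 and kindlin-3 (Fermt3) -0.05, with adjusted p of 0.415 and 0.812, and the receptor chains Itga2b and Itgb3, named after their values were seen, had -0.05 and -0.02. Of 9 thrombin and other agonist receptors 6 lay below 0, again against 50.9% of all genes, and P2rx1, an ATP-gated channel, had -0.10 (adjusted p = 0.535).

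Of 13 megakaryocyte transcription factors 0 passed, against 1.81% of all genes. At an unadjusted limma p under 0.05 were 3 of them (Mafg, Fli1 and Mafk), against 12.7% of all genes. Differences below 0 numbered 9, against 50.9% of all genes, and the median of the 13 was -0.05. Mafg led by p, followed by Fli1, the ETS factor of megakaryocytes, whose log2 signal was 11.24 ± 0.04 (SD, n = 3) in vehicle and 11.43 ± 0.03 after DB2313, a difference of 0.19 (limma adjusted p = 0.214). Fli1 passed with the offset (adjusted p = 0.0251) and with the trended and robust prior (0.00473). Gata1, the erythroid and megakaryocyte factor, had -0.05 with an interval from -0.21 to 0.11, and Runx1 had -0.07 (both named after their values were seen). Spi1 was lower with DB2313, with a difference of -0.37 (adjusted p = 0.0342) that was lost with each array dropped in turn (0.0648 to 0.134).

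**Figure D4:**
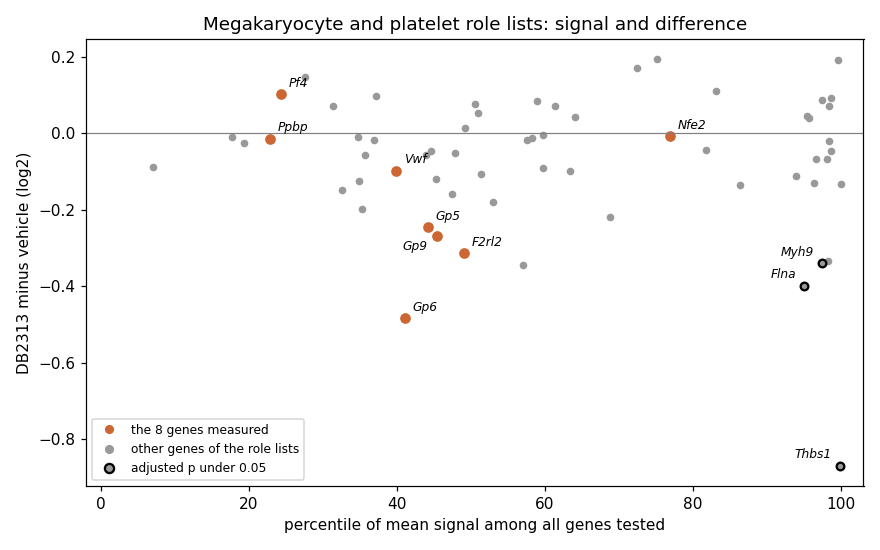
DB2313 minus vehicle difference (log2, vertical axis) against the percentile of mean signal among all genes tested (horizontal axis) for the 62 measured megakaryocyte and platelet genes. Orange points are the 8 genes described first, and black rings mark the 3 genes past an adjusted p of 0.05, Thbs1, Flna and Myh9, which lie at the bright end.

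Markers of neighbouring lineages were read in the same way. Of 7 measured erythroid markers 6 lay below 0, against 50.9% of all genes, and 0 passed in limma, against 1.81%. At an unadjusted p under 0.05 was 1 of the 7, against 12.7% of all genes. This was Klf1 (-0.26, limma adjusted p = 0.318), followed by Epor (-0.09). The mean signal of these markers was between 4.69 and 4.81 in vehicle and between 4.64 and 4.76 with DB2313. Of 10 mast cell and basophil markers 0 passed, against 1.81% of all genes. An unadjusted p under 0.05 was seen for 1, again against 12.7% of all genes. It was the basophil protease gene Mcpt8 (0.28, limma adjusted p = 0.0745), followed by Tpsb2 (0.17, or 0.02 without vehicle replicate 1). Mcpt8 passed in 4 of 16 alternatives, with adjusted p from 0.00889 to 0.244 over all of them. Their mean signal lay between 3.78 and 3.87 in vehicle and between 3.84 and 3.89 with DB2313, and that of the endothelial markers between 4.94 and 5.05 and between 5.05 and 5.10. The 12 leukaemia cell markers had means between 8.72 and 8.79 and between 8.66 and 8.80. Of these 12 only Spi1 passed, against 1.81% of all genes. The part of these cell types in the differences of the platelet genes was not tested.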

How the data were processed

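The deposited table holds 1 log2 signal per probe set and array, for 41345 rows and 6 arrays. Per the submitters' processing notes, the authors used Affymetrix Expression Console (version not stated). How background was corrected and probes were summarised is not given in the sources used here. That the deposited values are on the log2 scale was judged from their range, and near-equal array medians (4.77 to 4.82) mean that a change in total RNA per cell could not be seen. Pearson's r across genes was 0.996 within groups and 0.994 to 0.995 across groups.

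Gene names came from the platform annotation: 23521 rows had 1 symbol, 1814 several and 16010 none, and rows with several or none were left out. The row with the highest mean over the 6 arrays was kept for each gene, which gave 22180 genes. DB2313 was compared with vehicle in limma 3.58.1 (R 4.3.3, lmFit and eBayes, 2-sided), with p-values adjusted by Benjamini-Hochberg across the 22180 genes, a threshold of 0.05 and 95% confidence intervals; the test was tested on simulated data. The number of arrays limits the precision. The members and gene lists were chosen with earlier results of these data known. All 9 members are named, with Spi1, every gene of a list past the threshold or, where none passed, the 2 outside the members with the smallest p, and the 3 genes nearest in profile to the member with the smallest p; others are said to be named after their values were seen. A gene left out of the lists is not reported here. Alternatives were 2 filters on dim genes, quantile normalization, median centring, an offset of 32, the mean of a gene's rows, a replicate block, a trended and robust prior, all rows tested, an unmoderated test and each array left out. Promoters were taken from RefSeq (GRCm38.p6), with no measured signal at them. Over all genes, same-numbered arrays of the 2 groups deviated together only weakly. The correlations of their deviations were 0.023, 0.078 and 0.008, against -0.071 to 0.047 for arrays of different numbers. Gp5, Gp6 and F2rl2 did deviate alike on replicates 1 and 2 of both groups. The labels do not say that a number marks a shared culture, so the numbers were not taken as pairs.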

Additional observations from a re-analysis of the deposited data

How the results depend on the processing

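No member passed in any alternative except Gp6 under the trended and robust prior, where 1 member was lower; 0 passed in either direction with any array dropped. The count of all genes past the threshold, 401, became 799 without the genes below the median signal. It was 830 with the offset of 32 and 920 with the trended and robust prior. The count was 142 with all rows tested, but it is of rows, and the count of genes there was 118. The gene count was 70 with the unmoderated test, and 136 to 187 when any 1 array was left out. With the replicate number as a block it was 190, of which 178 were among the 401, and the block brought 4 members to an unadjusted p under 0.05 (12.5% of all genes in that fit), Gp6 (adjusted p = 0.0646), F2rl2 (0.182), Gp9 (0.238) and Gp5 (0.305), none of which passed. Since the numbers were not shown to pair the arrays, this fit is given only here. The filter at the 0.25 quantile left out Pf4 and Ppbp, and that at the median left only Nfe2. Quantile normalization and median centring left 7 of 8 differences below 0, as without them.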
